A study of Homo sapiens with 12 samples.

Results

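HT1080 cells, a human fibrosarcoma line, were compared with and without phorbol 12-myristate 13-acetate (PMA), with 3 RNA sequencing libraries per group. These are 6 of the 12 libraries of a series on the tissue inhibitor TIMP2 and the proteins found near it outside the cell. The cells, of wild-type genotype by their label, were seeded at 1000000 per 10 cm dish in medium with 10% serum, and received 40 nM PMA or no agent 3 days later in biotin-depleted medium with 1% serum, for 24 h. Both groups therefore share the low serum and the low biotin. Of the 16101 genes listed for this experiment, the 15153 whose mean over the 6 libraries reached 10 normalized counts were taken. They are described here by gene class, with 39 written lists and 28 families defined by gene symbol.

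PMA is a plant phorbol ester that takes the place of diacylglycerol (DAG), the lipid second messenger that opens several protein kinase C (PKC) enzymes, and it also binds protein kinase D, RASGRP exchange factors, chimaerins and UNC13 proteins. PKC feeds the RAF, MEK and ERK kinase cascade and the IKK complex, through which AP-1 and NF-kB transcription factors are switched on. In connective tissue cells and keratinocytes, phorbol esters are known for inducing collagenase, urokinase-type plasminogen activation, cytokines and prostaglandin synthesis. Long exposure is known to deplete PKC enzymes at the protein level, which transcript counts do not measure.

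The libraries held an estimated 40274123, 41132821 and 40807575 reads in the controls and 34517863, 42183413 and 33641981 with PMA. Pearson correlations of log2 values ran from 0.9917 to 0.9954 within groups and from 0.9562 to 0.9589 between them, so that every library was closest to its own group. The mesenchymal markers vimentin (VIM) and fibronectin (FN1) were abundant in both groups. VIM stood at 192590, 194024 and 200639 normalized counts in the controls and 273127, 267398 and 285122 with PMA. FN1 stood at 170977, 165187 and 165879 normalized counts in the controls and 115608, 111935 and 112813 with PMA. Of all 17 mesenchymal markers tested, 4 were higher and 10 lower at an adjusted p of at most 0.05 and any fold. Their median log2 fold change was -0.29. Together the 11 endothelial and epithelial markers tested held 31707 ± 1062 normalized counts in the controls and 20789 ± 436 with PMA (SD, n = 3). The keratin gene KRT8, given below, made up a large part of both sums. At an adjusted p of at most 0.05 and any fold, 2 of the 11 were higher and 6 lower. Of the 27 leukocyte markers, 19 were measurable at a low level, together 14448 ± 249 normalized counts in the controls and 17997 ± 825 with PMA (SD, n = 3), of which CD68 and LCP1 made up most. The pan-leukocyte gene PTPRC stood at 187, 177 and 176 normalized counts in the controls and 168, 232 and 328 with PMA, and the groups overlapped. At an adjusted p of at most 0.05 and any fold, 11 of the 19 were higher and 1 lower (against 32.8% and 30.5% of all genes tested), with a median log2 fold change of 0.55. The single leukocyte marker to pass the stricter call defined below was the granule protein gene GNLY. It had 88.5, 58.1 and 105 normalized counts in the controls and 229, 218 and 253 with PMA. GNLY was not called without control 1, PMA 1, PMA 2 or PMA 3 (log2 fold change 1.44 to 1.56, adjusted p 1.78e-04 to 2.75e-04). In RNA from whole cultures, fewer cells of a type and less RNA per cell cannot be told apart. The part of the leukocyte markers in the cytokine results below was not tested. The labels do not say whether the 3 libraries of a group came from separate cultures, so p-values measure the spread between these libraries. With 3 libraries a side, an exact permutation test reaches p = 0.1 at best, and each gene was tested with limma on log2(normalized count + 1) instead. On this scale the fold changes of low genes are understated.

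A gene was called when its log2 fold change, PMA over control, was at least 1 in size with a Benjamini-Hochberg adjusted p of at most 0.0001. By this rule 611 genes (4.03% of those tested) were higher and 699 (4.61%) lower with PMA, 8.65% in all. These percentages are the background against which the class counts below are read. A second rule, an adjusted p of at most 0.05 at any fold, found 4970 genes higher (32.8%) and 4616 lower (30.5%), and the groups did not overlap for 67.9% of genes. Most changes were therefore small and spread over many genes. At a log2 change of at least 2 the split was 192 higher and 183 lower, and at 4 it was 50 and 12, so the largest changes were mostly rises. Genes called higher took 3.27 ± 0.0359% of all normalized counts in the controls and 9.82 ± 0.0542% with PMA (SD, n = 3), and genes called lower went from 3.65 ± 0.116% to 1.16 ± 0.0179%. The median over all genes was 0.00 on the log2 scale as deposited and -0.12 when each library was scaled to the same summed count. With that scaling 36.6% of the calls were rises, against 46.6% as deposited.

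**Figure D1:**
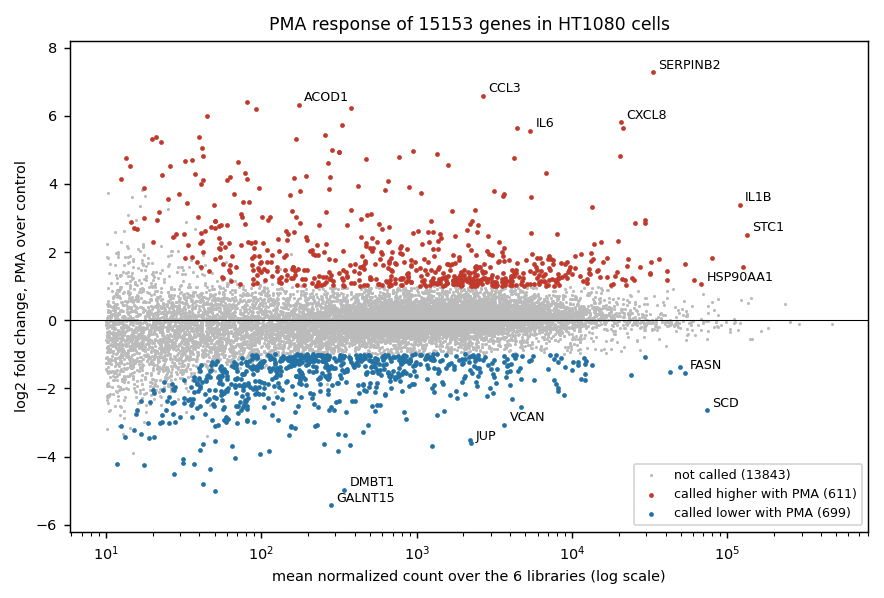
Each point is one of the 15153 tested genes, with its mean normalized count over the 6 libraries (log axis) against its log2 fold change, PMA over control. The 611 genes called higher are red and the 699 called lower blue, and the rises reach further from 0 than the falls.

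A few transcripts held much of the rise. Where a gene is said below to go from one set of 3 values to another, the first set holds the control libraries and the second the PMA libraries, each in replicate order. The summed rise of all genes called higher was 2736897 normalized counts, and 10 genes held 33.0% of it. Interleukin-1 beta (IL1B) rose most in counts, with 21691, 21670 and 19385 normalized counts in the controls and 212324, 226734 and 217958 with PMA, a log2 fold change of 3.39. STC1, which encodes the secreted glycoprotein stanniocalcin, was another of them, with 39435, 40939 and 39511 normalized counts in the controls and 223667, 230629 and 224889 with PMA. Also among the largest rises in counts were the laminin chain LAMB3 (34765 ± 460.1 normalized counts in the controls and 123476 ± 3231 with PMA, mean ± SD, n = 3), the membrane-bound semaphorin SEMA7A (26031 ± 1314 and 81306 ± 2357 likewise), the chaperone HSP90AA1 (44123 ± 1063 and 91538 ± 1699 likewise) and the actin linker moesin, MSN (37184 ± 1635 and 84234 ± 2739 likewise). For all of these the groups were far apart. HSP90AA1, at a log2 fold change of 1.05, was no longer called under quantile normalization or scaling to summed counts. The falls in counts were led by SCD, the fatty acid desaturase, from 126551, 116551 and 136051 to 20797, 19521 and 20544 normalized counts, and by FASN, the fatty acid synthase, from 78235, 67067 and 92524 to 27886, 23965 and 29230 normalized counts. SPARC, a matrix glycoprotein, the hair keratin KRT81, the tissue-type plasminogen activator PLAT and the prion protein gene PRNP (39763 ± 962 normalized counts in the controls and 18802 ± 410.3 with PMA) were also among the 8 largest falls in counts.

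Across the 64 classes in the plot of class medians, 5 classes had no called member, 4 had at least 3 calls that were all higher, and 5 had at least 3 calls that were all lower. Calls went both ways in 40 classes. The all-higher classes were chemokines, the IL-1 family, other interleukins and colony-stimulating factors, and the NF-kB class. The all-lower classes were the cholesterol genes, the interferon-stimulated genes, keratins, HOX genes and the glycolysis and hypoxia class. In HOX genes and the glycolysis and hypoxia class, 9.68% and 7.69% of members were called, near the 8.65% of all genes.

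**Figure D2:**
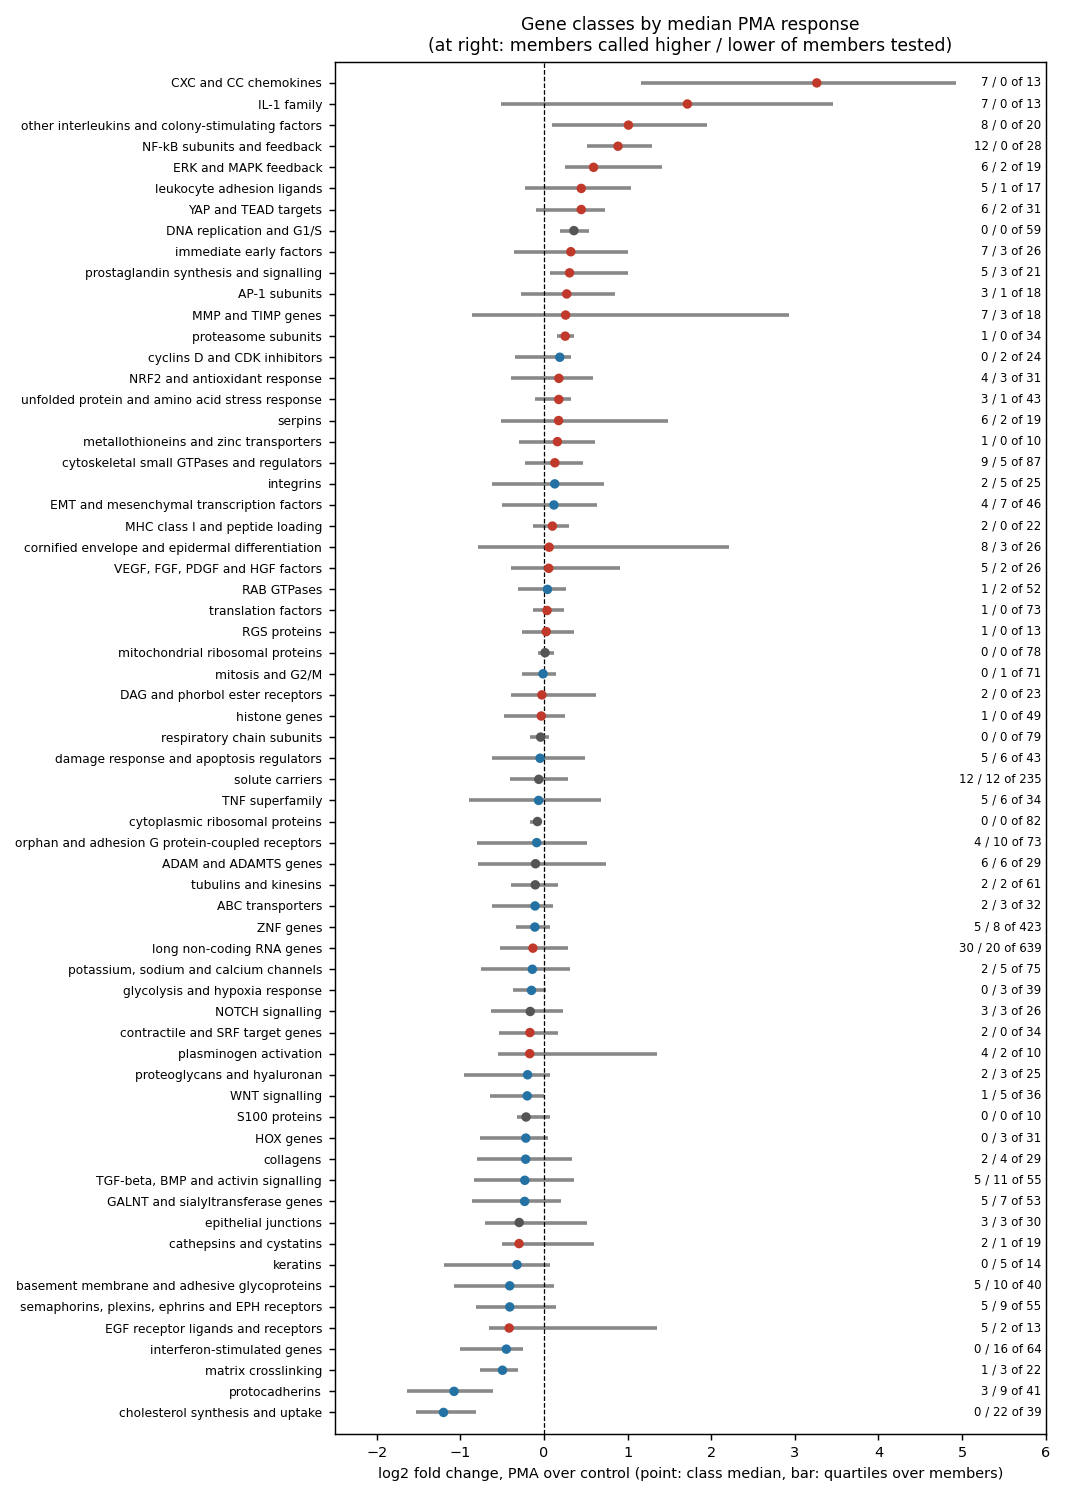
For 64 gene classes, the point is the median log2 fold change over the tested members and the bar spans the quartiles (red: more members called higher than lower, blue: more called lower, grey: equal). Counts at the right are members called higher / lower of those tested, and the dashed line is the median of all tested genes. Chemokines and the IL-1 family lie at the top, protocadherins and the cholesterol class at the bottom.

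The genes for receptors of PMA were called about as often as all genes. Of 23 genes for PKC, protein kinase D, RASGRP, chimaerin, UNC13 and diacylglycerol kinase proteins, 2 (8.70%, against 8.65% of all genes) were called, both higher, and the median log2 fold change was -0.03, which changed sign under quantile normalization. By the second rule 9 were higher and 8 lower. PRKCA, PKC alpha, had 5799, 5648 and 6194 normalized counts in the controls and 3502, 3306 and 3452 with PMA (log2 fold change -0.78, adjusted p = 4.25e-08), and PRKCE, PKC epsilon, had 1705, 1585 and 1666 normalized counts in the controls and 1016, 1113 and 959 with PMA (log2 fold change -0.68). In both, every PMA library lay below every control, but the change was under 2-fold. PRKCD, PKC delta, went the other way, with 2219, 2125 and 2091 normalized counts in the controls and 4071, 3925 and 3980 with PMA (log2 fold change 0.90, adjusted p = 5.79e-09). PRKD3 (log2 fold change 0.70), PRKCB (log2 fold change 0.90) and DGKH (log2 fold change 0.87) likewise lay above the controls in every library without being called, while PRKCH and PRKD2 overlapped between the groups at log2 fold changes of -0.03 and -0.03. The 2 calls were diacylglycerol kinases, enzymes that remove DAG: DGKI had a log2 fold change of 1.20 and DGKD of 1.01. No PKC, protein kinase D, RASGRP, chimaerin or UNC13 gene was therefore called. DGKD was not called without control 1, control 2 or PMA 1 (log2 fold change 0.99 to 0.99, adjusted p 7.09e-08 to 2.95e-07).

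Feedback genes of the ERK cascade were more often higher than lower. Of 19 tested, 6 were called higher and 2 lower, 13 were higher by the second rule, and the median was 0.59. DUSP5, a nuclear phosphatase of ERK, had 5026, 5048 and 5308 normalized counts in the controls and 26256, 25201 and 24636 with PMA (log2 fold change 2.31, SE 0.04, adjusted p = 2.98e-12). The Sprouty proteins, which dampen receptor signals to RAS, split: SPRY4 had 2261, 2226 and 2397 normalized counts in the controls and 8820, 8668 and 8816 with PMA and SPRY2 had 3032, 3002 and 3066 normalized counts in the controls and 10858, 11239 and 11231 with PMA, with log2 fold changes of 1.93 and 1.87, whereas SPRY1 lay lower, at 86.7, 69.8 and 82.2 normalized counts in the controls and 27.9, 29.5 and 31.1 with PMA (log2 fold change -1.40). SPRY1 was not called without control 1, control 2, control 3, PMA 1 or PMA 2 (log2 fold change -1.49 to -1.33, adjusted p 1.13e-04 to 4.29e-04). The stress-response gene IER3 (log2 fold change 1.79), the small MAF factor MAFF (log2 fold change 1.82) and SPRED2 (log2 fold change 1.03) rose too. SPRED2 was not called under quantile normalization or scaling to summed counts. The other ERK phosphatases did not move together. DUSP4 fell from 13197, 12186 and 13820 to 5062, 4920 and 5037 normalized counts (log2 fold change -1.38), and DUSP6 stood at only 71.9, 51 and 42.4 normalized counts in the controls and 97.5, 80.8 and 129 with PMA (log2 fold change 0.89, not called). DUSP1, an immediate early phosphatase, overlapped between the groups, with 1674, 1802 and 1908 normalized counts in the controls and 1989, 1819 and 1906 with PMA.

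Among the 18 AP-1 and related basic leucine zipper genes, 3 were called higher and 1 lower, with a median of 0.27. The JUN and FOS members did not change alike. FOSL1, which encodes FRA1, rose from 10043, 10010 and 10607 to 35123, 34622 and 37787 normalized counts (log2 fold change 1.81, SE 0.04, adjusted p = 3.87e-11), and JUNB rose from 4439, 4523 and 4458 to 10245, 9833 and 10764 normalized counts (log2 fold change 1.20). JUN itself changed by 0.34 on the log2 scale, with 10647, 10655 and 10452 normalized counts in the controls and 13477, 13386 and 13278 with PMA, which did not overlap and passed the second rule alone. JUND (log2 fold change -0.82) and FOSL2 (log2 fold change -0.54) were lower in every PMA library without reaching the fold of the call. FOS was scarce at this time, at 135, 135 and 144 normalized counts in the controls and 229, 219.6 and 285 with PMA, and FOSB, at 52.5, 60.8 and 56.9 normalized counts in the controls and 115, 109 and 135 with PMA, was called at a log2 fold change of 1.06. FOSB was not called without control 1, control 2, PMA 1, PMA 2 or PMA 3 (log2 fold change 0.97 to 1.12, adjusted p 1.83e-04 to 4.32e-04), and it also lost its call with a replicate block (adjusted p = 1.47e-04). ATF3, an early stress factor, overlapped between the groups (log2 fold change -0.07).

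Other immediate early factors, which respond to growth factors within minutes, still differed at 24 h. Of 26 tested, 7 were called higher and 3 lower. EGR1, a zinc finger factor, had 575, 461 and 569.6 normalized counts in the controls and 6845, 6356 and 6655 with PMA (log2 fold change 3.63, SE 0.08, adjusted p = 1.35e-11), with no overlap. The nuclear receptor NR4A2 went from 789, 793 and 856 to 91.7, 93.2 and 64.7 normalized counts (log2 fold change -3.29), and IER5L fell as well (log2 fold change -1.91).

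The NF-kB class had no member called lower. Of 28 subunit, inhibitor and feedback genes, 12 were called higher (against 4.03% of all genes), 23 were higher by the second rule and 2 lower, and the median was 0.89. The called genes were mostly inhibitors and feedback proteins, many of them known NF-kB targets. TNFAIP3, which encodes the deubiquitinase A20, had 532, 547 and 506 normalized counts in the controls and 4003, 4014 and 4025 with PMA (log2 fold change 2.92, SE 0.05, adjusted p = 1.76e-12). TRAF1, an adaptor of TNF receptors, had 648, 603 and 603 normalized counts in the controls and 4391, 4340 and 4264 with PMA (log2 fold change 2.81), and BIRC3, a ubiquitin ligase of the same complexes, had 267, 308 and 279 normalized counts in the controls and 1303, 1353 and 1257 with PMA (log2 fold change 2.19). TNIP3, a partner of A20, rose from a low level, 3.69, 4.47 and 5.42, to 121, 145 and 147 (log2 fold change 4.66). Every PMA library lay above every control in each of these. The I-kappa-B family genes NFKBIA (log2 fold change 1.55), NFKBIE (log2 fold change 1.47), NFKBIZ (log2 fold change 1.28) and NFKBIB (log2 fold change 1.10) rose less. Of the subunits, NFKB2 (log2 fold change 1.33), NFKB1 (log2 fold change 1.28) and RELB (log2 fold change 1.11) were called, while RELA, with 4521, 4400 and 4840 normalized counts in the controls and 6119, 5625 and 6332 with PMA, had a log2 fold change of 0.39 and REL one of 0.82, neither called. RELB and NFKBIB lost their calls when the libraries were scaled to the same summed count, and RELB also under quantile normalization. BCL3 was lower in every PMA library (log2 fold change -0.59) without being called.

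The DNA element that NF-kB binds, the kappaB motif, was looked for near the starts of these genes. RefSeq windows on GRCh38.p14 were searched from 250 bases before to 50 after each gene start for it on both strands, and 9 of the 25 windows available for the class held it, against 6.62% of 11800 windows of tested genes. The windows of NFKB2, NFKBIB, TNIP1 and TRAF1, which were also called higher, held no match. The stretches below come from called genes of the class with a match. They are read 5′ to 3′ on the strand of the gene, and carry the match in capitals.
NFKB1, chr4:102501290-102501339, plus strand: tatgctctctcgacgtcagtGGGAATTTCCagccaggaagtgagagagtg
NFKBIA, chr14:35404801-35404850, minus strand: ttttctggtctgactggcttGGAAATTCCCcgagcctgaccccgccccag
NFKBIZ, chr3:101827747-101827796, plus strand: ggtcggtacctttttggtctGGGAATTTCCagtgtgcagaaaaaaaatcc
TNFAIP3, chr6:137867172-137867233, plus strand: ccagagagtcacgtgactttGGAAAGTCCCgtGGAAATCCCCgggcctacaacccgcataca
TNIP3, chr4:121227516-121227565, minus strand: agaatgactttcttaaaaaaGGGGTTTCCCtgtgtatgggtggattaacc
BIRC3, chr11:102317265-102317378, plus strand: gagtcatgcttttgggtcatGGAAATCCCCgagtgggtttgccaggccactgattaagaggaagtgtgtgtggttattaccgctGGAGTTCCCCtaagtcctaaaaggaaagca
TNFAIP3 and BIRC3 each held a pair of matches, which start 67 and 55 and 199 and 135 bases before the gene start, and in NFKB1 the match starts 49 bases before it. A match is a letter pattern, and binding was not measured. The kappaB pattern used opens with GGG on either strand, and sites that depart from it were not counted.

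Chemokines, secreted proteins that guide leukocytes, had the highest median log2 fold change of the classes, 3.26. Of 13 tested, 7 were called higher and none lower. CXCL8, the neutrophil attractant interleukin-8, had 736, 708 and 719.5 normalized counts in the controls and 39161, 42630 and 39334 with PMA (log2 fold change 5.80, SE 0.04, adjusted p = 3.67e-15), so that the lowest PMA library was far above the highest control. CXCL3, a related attractant, had 178, 181 and 164 normalized counts in the controls and 8320, 8836 and 8899 with PMA (log2 fold change 5.63). CCL20, which attracts cells bearing CCR6, went from 19.4, 15.2 and 24.4 to 577, 650.2 and 619 normalized counts (log2 fold change 4.92). CCL3 rose from 53.5, 50.1 and 56.9 to 4916, 5390 and 5457 normalized counts (log2 fold change 6.59), and its reads can be split with the near-identical copy CCL3L1, so the value of either gene alone is uncertain. The chemokine class had 0.00550% of all counts in the controls and 0.142% with PMA. Of 8 chemokine windows available, from members called or not, 5 held the kappaB motif and 2 the AP-1 motif. Among called chemokine genes with a window, CXCL3 and CCL20 held the kappaB motif and CXCL8 the AP-1 motif alone. The windows of CCL3 and PPBP, which were also called higher, held neither. The stretches below show matches before the start of the called chemokine genes, and before IL6, IL1A and IL1RN, which are described next. Capitals mark kappaB in CXCL3, CCL20 and IL6 and the AP-1 letters TGACTCA, on either strand, in CXCL8, IL1A and IL1RN. The windows of CXCL8, IL1A and IL1RN held no match to the kappaB pattern used, and sites that depart from that pattern were not searched for.
CXCL8, chr4:73740412-73740458, plus strand: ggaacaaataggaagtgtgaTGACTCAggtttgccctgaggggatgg
CXCL3, chr4:74038738-74038788, minus strand: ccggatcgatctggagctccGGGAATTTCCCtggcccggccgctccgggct
CCL20, chr2:227813743-227813792, plus strand: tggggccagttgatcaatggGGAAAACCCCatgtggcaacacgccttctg
IL6, chr7:22727107-22727156, plus strand: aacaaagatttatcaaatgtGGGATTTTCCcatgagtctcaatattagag
IL1A, chr2:112784494-112784525, minus strand: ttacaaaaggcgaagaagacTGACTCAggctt
IL1RN, chr2:113117728-113117774, plus strand: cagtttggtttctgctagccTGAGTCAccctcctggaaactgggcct

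The IL-1 family, which signals through receptors that activate NF-kB in turn, followed. Its share of all counts went from 0.0697% to 0.567%, of which IL1B took 0.0566% and 0.545%. Of 13 members tested, 7 were called higher and none lower, with a median of 1.71. By the second rule 8 were higher and 4 lower. IL36RN, a receptor antagonist, had 9.22, 10.7 and 7.22 normalized counts in the controls and 756, 753 and 728 with PMA (log2 fold change 6.23, SE 0.15, adjusted p = 4.00e-11), and the agonist IL36B had 54.4, 42.9 and 61.4 normalized counts in the controls and 1496, 1540 and 1400 with PMA (log2 fold change 4.79). Agonists and their antagonists therefore rose together. IL33, an alarmin, had 31.4, 22.4 and 29.8 normalized counts in the controls and 521, 515 and 534 with PMA (log2 fold change 4.20). IL1A went from 798, 857 and 766 to 2798, 3065 and 2889 normalized counts (log2 fold change 1.85), and IL1RN, the antagonist of both IL-1 proteins, from 3.69, 7.15 and 3.61 to 53.4, 52.3 and 79 normalized counts (log2 fold change 3.45). IL36G went from 19.4, 18.8 and 14.4 to 61.5, 58 and 58.7 normalized counts (log2 fold change 1.72) and was called, though it was not called without control 1, control 2, PMA 1, PMA 2 or PMA 3 (log2 fold change 1.69 to 1.79, adjusted p 1.01e-04 to 2.83e-04).

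Of 20 other interleukin and colony-stimulating factor genes, 8 were called higher and none lower, with a median of 1.01. IL6 had 205, 242 and 218 normalized counts in the controls and 10185, 10739 and 10510 with PMA (log2 fold change 5.56, SE 0.06, adjusted p = 6.35e-14). IL24, a cytokine of the IL-10 family, had 385, 354 and 278 normalized counts in the controls and 2048, 2088 and 1912 with PMA (log2 fold change 2.58). CSF2, which encodes GM-CSF, went from 14.8, 10.7 and 9.93 to 95.2, 67.5 and 87.4 normalized counts (log2 fold change 2.72). CSF3, which encodes G-CSF, was within 3 estimated reads in every control library and stood at 76.6, 91.2 and 75.4 with PMA, at least 29.8-fold higher. In the plot of cytokine genes by library, no called gene has a PMA library within its control range. ACOD1, which makes itaconate and is best known from activated macrophages, went from 3.69, 3.58 and 2.71 to 318, 374 and 342 normalized counts (log2 fold change 6.33), and NLRP10, a member of the NOD-like receptor family, from 7.38, 13.4 and 14.4 to 663, 624 and 664 normalized counts (log2 fold change 5.72).

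**Figure D3:**
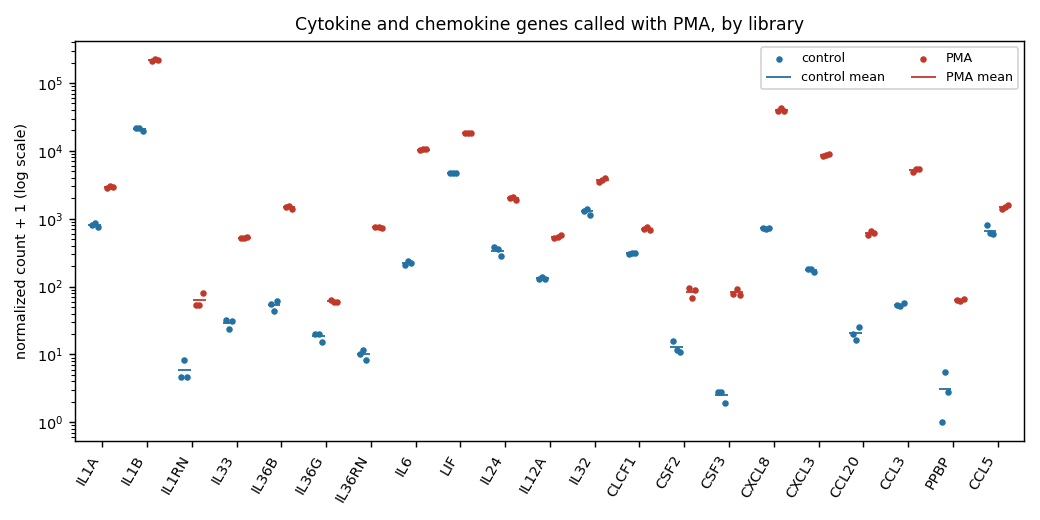
Normalized counts plus 1 (log axis) of 21 called cytokine and chemokine genes, with one point per library and a line at the group mean (blue: controls, red: PMA). For every gene shown the 3 PMA libraries sit above the 3 controls.

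Ligands and receptors of the EGF family, which start the RAS and ERK cascade at the cell surface, changed in both directions. Of 13 tested, 5 were called higher and 2 lower. Among the ligands, neuregulin 1 (NRG1) had 1330, 1364 and 1392 normalized counts in the controls and 6229, 6026 and 5680 with PMA (log2 fold change 2.13, SE 0.04, adjusted p = 1.32e-11), amphiregulin (AREG) had 101, 107 and 92.1 normalized counts in the controls and 370.3, 438 and 412 with PMA (log2 fold change 2.01) and HBEGF rose by 1.06 on the log2 scale. TGFA fell, from 4639, 4635 and 4926 to 1166, 1188 and 1244 normalized counts (log2 fold change -1.98). BTC (log2 fold change -0.66) and EGF (log2 fold change -0.66) were lower in every PMA library but not called. The receptor EGFR went from 7303, 7066 and 7608 to 19652, 18689 and 18408 normalized counts (log2 fold change 1.37), while ERBB2 had a log2 fold change of -0.42 without a call. The receptor's inhibitors also parted: ERRFI1 rose (log2 fold change 1.35) and LRIG1 fell (log2 fold change -1.08). The HBEGF call was lost under quantile normalization and under scaling to summed counts.

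Genes of TGF-beta, BMP and activin signalling were called lower more often than higher, 11 against 5 of 55, with a median of -0.23. The rises were in ligands. BMP2 had 396, 418 and 466 normalized counts in the controls and 6530, 5619 and 5548 with PMA (log2 fold change 3.79, SE 0.07, adjusted p = 7.82e-12), and INHBA, the subunit of activin A, had 2427, 2352 and 2629 normalized counts in the controls and 24495, 24929 and 24058 with PMA (log2 fold change 3.31). SMAD6, an inhibitor of BMP signals and a known target of them, fell from 137, 127 and 132 to 19.7, 31.4 and 22.8 normalized counts (log2 fold change -2.40). The activin subunit gene INHBE fell as well (log2 fold change -2.15), and so did TGFB2, from 1104, 1060 and 1258 to 389, 373 and 396 normalized counts (log2 fold change -1.56). Under scaling to summed counts or quantile normalization the calls higher in this class numbered 3.

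Smaller signalling classes each held a few strong changes. In the WNT class 5 of 36 were called lower and 1 higher, and without control 2 the lower calls numbered 3. The orphan receptor ROR1 fell (log2 fold change -2.48), AXIN2, a negative regulator and common readout of beta-catenin, fell from 90.4, 78.7 and 77.6 to 13.9, 16.2 and 19.2 normalized counts (log2 fold change -2.26), and the agonist RSPO3 rose (log2 fold change 2.61). In the NOTCH class 3 of 26 were called in each direction, among them HES2 (log2 fold change -2.37) and the receptor NOTCH3 (log2 fold change -1.33) lower and HES7 (log2 fold change 1.67) and DTX4 (log2 fold change 2.11) higher. Of 34 TNF superfamily genes, 5 were called higher and 6 lower. The ligands TNFSF15, at 105, 98.4 and 96.6 normalized counts in the controls and 898, 896 and 797 with PMA (log2 fold change 3.10), and TNFSF14 (log2 fold change 2.81) rose, and the ligand TNFSF13B (log2 fold change -1.94) and the receptor NGFR (log2 fold change -2.39) fell. Among 26 genes of the VEGF, FGF, PDGF and HGF systems, 5 were called higher and 2 lower. FGF5 rose from 264, 266 and 293 to 1619, 1658 and 1564 normalized counts (log2 fold change 2.55), while ANGPT1, an angiopoietin, fell from 91.3, 71.5 and 72.2 to 4.64, 4.75 and 7.18 normalized counts (log2 fold change -3.62). The PDGF receptors moved in opposite directions, PDGFRA from 20.3, 22.4 and 19.9 to 88.2, 111 and 91 normalized counts (log2 fold change 2.16) and PDGFRB from 1153, 1069 and 1199 to 391, 314 and 377 normalized counts (log2 fold change -1.66).

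Genes of pericellular proteolysis were called among enzymes and inhibitors alike. In the plasminogen class 4 of 10 were called higher and 2 lower. SERPINB2, an inhibitor of plasminogen activators, rose by 7.27 on the log2 scale, whereas PLAT, an activator, fell from 35809, 36461 and 35726 to 11413, 11456 and 12286 normalized counts (log2 fold change -1.62). SERPINF2, the plasmin inhibitor, fell from 99.6, 106 and 87.6 to 12.8, 20.9 and 13.2 normalized counts (log2 fold change -2.60). In the wider serpin family 6 of 19 were called higher and 2 lower, and SERPINA1, alpha-1-antitrypsin, had 55.3, 56.3 and 61.4 normalized counts in the controls and 1905, 1814 and 1825 with PMA (log2 fold change 4.98). The serpin share of all counts went from 0.264% to 0.715%. Among 18 matrix metalloproteinase (MMP) and TIMP genes, 7 were called higher and 3 lower. Beyond the collagenase MMP1 and the gelatinase MMP9, which rose by 5.65 and 4.77 on the log2 scale, the stromelysins, which cut many matrix proteins, rose as well. MMP3 went from 48.9, 41.1 and 63.2 to 798, 755 and 824 normalized counts (log2 fold change 3.95), and MMP10, within 3 estimated reads in every control, stood at 195, 182 and 169, at least 67.0-fold higher. TIMP3, the matrix-bound inhibitor, fell from 3946, 3716 and 4564 to 367, 333 and 366 normalized counts (log2 fold change -3.51).

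ADAM and ADAMTS genes, which include the proteoglycanases, were called equally often in both directions, 6 and 6 of 29. ADAMTS18 rose from 155, 119 and 148 to 1022, 993 and 981 normalized counts (log2 fold change 2.83) and ADAMTS9 from 101, 80.5 and 87.6 to 413, 447 and 424 normalized counts (log2 fold change 2.25). The lysosomal protease cathepsin S (CTSS) rose by 2.20 on the log2 scale.

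Structural matrix genes were lower more often than higher. Of 40 basement membrane and adhesive glycoproteins, 10 were called lower and 5 higher, 23 were lower by the second rule, and the median was -0.41. SPARC had 63938, 62498 and 63222 normalized counts in the controls and 21987, 21817 and 22067 with PMA (log2 fold change -1.53, SE 0.04, adjusted p = 3.10e-11), SMOC1 went from 391, 410.5 and 358 to 97.5, 91.2 and 85 normalized counts (log2 fold change -2.07) and CCN3 from 327, 288 and 309.6 to 90.5, 72.2 and 81.4 normalized counts (log2 fold change -1.91). LAMB3, a laminin chain of epithelial basement membranes, went the other way, with 34749, 34314 and 35233 normalized counts in the controls and 125377, 119745 and 125305 with PMA (log2 fold change 1.83). Among 25 proteoglycan and hyaluronan genes the changes crossed. VCAN, the large hyaluronan-binding proteoglycan, had 6467, 6450 and 6701 normalized counts in the controls and 821, 722 and 793 with PMA (log2 fold change -3.07), and HAS2, a hyaluronan synthase, had 458, 423 and 490 normalized counts in the controls and 4306, 4371 and 4173 with PMA (log2 fold change 3.23). Of 22 crosslinking and collagen-processing genes, 18 were lower by the second rule with a median of -0.50, though only 3 were called lower. The procollagen enhancer PCOLCE (log2 fold change -1.18) was one of them and P3H2, a prolyl hydroxylase, rose (log2 fold change 2.02).

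Of 29 collagen genes, 4 were called lower and 2 higher, 15 were lower by the second rule, and the median was -0.22. COL5A1 went from 3129, 3239 and 3718 to 1410, 1294 and 1280 normalized counts (log2 fold change -1.34) and COL4A5, of basement membranes, from 1447, 1511 and 1556 to 489, 449 and 526 normalized counts (log2 fold change -1.63). COL22A1 rose (log2 fold change 1.56). Without control 1 the collagen calls numbered 2 lower and 1 higher, and without control 3 or PMA 3 there was 1 higher. Of 25 integrins, 5 were called lower and 2 higher. ITGB8, which pairs with the alpha-v chain, fell from 569, 614 and 707 to 48.8, 61.8 and 71.8 normalized counts (log2 fold change -3.36). ITGB4, a chain of a laminin receptor, also fell (log2 fold change -2.36), as did the collagen receptor chains ITGA10 (log2 fold change -1.63) and ITGA11 (log2 fold change -2.28). Without control 1 the integrins called higher numbered 4.

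Several epidermal differentiation genes were higher with PMA, most of them from very low counts. Of 26 tested of a list of 77, 8 were called higher and 3 lower. PI3, an elastase inhibitor of stressed skin, went from 8.3, 15.2 and 2.71 to 308, 342 and 328 normalized counts (log2 fold change 5.31) and LCE1F, a late cornified envelope protein, from 12, 8.05 and 15.3 to 176, 165 and 206 normalized counts (log2 fold change 3.88). LCE3E and LCE3D lay within 3 estimated reads in every control, and stood at 140.5, 158 and 183 and 84.8, 98.6 and 83.8 with PMA, at least 59.0-fold and 32.8-fold higher. SERPINB7, another gene of this class, had 401, 412 and 404 normalized counts in the controls and 2023, 1994 and 2019 with PMA (log2 fold change 2.31). PADI3, which modifies proteins of the hair follicle and upper epidermis, is outside the list and fell from 143, 129.7 and 115 to 5.8, 6.65 and 8.38 normalized counts (log2 fold change -4.04). The 3 calls lower dropped to 1 when any of the libraries control 1, control 2, control 3, PMA 1 or PMA 2 was left out.

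Junction and keratin genes followed other patterns. Of 30 epithelial junction genes, 3 were called in each direction. JUP, plakoglobin, had 4128, 3580 and 4619 normalized counts in the controls and 334, 303 and 369 with PMA (log2 fold change -3.61, SE 0.09, adjusted p = 5.53e-11), and the desmosomal plakophilin PKP3 fell too (log2 fold change -1.65). Claudin-1 (CLDN1) rose from 45.2, 59 and 27.1 to 295, 294 and 339 normalized counts (log2 fold change 2.86) and the epithelial ETS factor EHF from 10.1, 4.47 and 9.93 to 149, 150.2 and 165 normalized counts (log2 fold change 4.15). No keratin was called higher and 5 of 14 were called lower, and the share of keratin counts went from 0.291% to 0.118%. KRT80 went from 2557, 2596 and 2553 to 429.5, 384 and 407 normalized counts (log2 fold change -2.66) and KRT8 from 15482, 15364 and 14741 to 6599, 6309 and 6677 normalized counts (log2 fold change -1.22). KRT81, a hair keratin, had 73314, 74622 and 68225 normalized counts in the controls and 26934, 27444 and 28426 with PMA (log2 fold change -1.38). KRT81 is nearly identical in sequence to KRT86 and to the pseudogene KRT87P, so the split of reads among the 3 is uncertain.

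Protocadherins, which give neighbouring cells surface identities, were mostly lower. The median over 41 members was -1.07, and 34 were lower by the second rule against 3 higher. By the call 9 were lower and 3 higher, with 5 lower when control 1 was left out. Most are low in count, which limits their calls. PCDH7 went from 237, 189 and 255 to 56.9, 39.9 and 39.5 normalized counts (log2 fold change -2.30) and PCDH18 from 54.4, 59.9 and 68.6 to 11.6, 13.3 and 9.58 normalized counts (log2 fold change -2.31), while PCDH9 rose from 38.7, 54.5 and 47.8 to 239, 247 and 248 normalized counts (log2 fold change 2.37). The clustered members share constant exons, and how reads on those exons were assigned is not given in the sources used here, so their single values are uncertain.

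Surface ligands for leukocytes were called higher in 5 of 17 and lower in 1, which was not called without control 2. ICAM1, the ligand of leukocyte integrins, had 684, 596 and 645 normalized counts in the controls and 13022, 12602 and 13192 with PMA (log2 fold change 4.33, SE 0.05, adjusted p = 1.60e-13), and ICAM4 went from 2.77, 2.68 and 6.32 to 82.4, 78 and 80.2 normalized counts (log2 fold change 4.12). ALCAM (log2 fold change 1.67) and PODXL (log2 fold change 1.27) rose less. Of 22 MHC class I and peptide loading genes, 2 (9.09%, against 8.65% of all genes) were called, both checkpoint ligands placed in that list. CD274, PD-L1, went from 697, 639 and 613 to 1619, 1735 and 1664 normalized counts (log2 fold change 1.36) and PDCD1LG2, PD-L2, from 306, 309 and 272 to 714, 747 and 664 normalized counts (log2 fold change 1.26). The median of the class was 0.10, and it changed sign under quantile normalization and under scaling to summed counts.

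Interferon-stimulated genes, the antiviral effectors induced by type I interferon, were called in one direction only. Of 64, 16 were called lower and none higher, 51 were lower by the second rule and 5 higher, and the median was -0.45. IFIT1, which binds foreign RNA, had 1524, 1475 and 1337 normalized counts in the controls and 224, 215 and 225 with PMA (log2 fold change -2.70, SE 0.07, adjusted p = 4.15e-11). MX2 had 513, 438 and 457 normalized counts in the controls and 76.6, 81.8 and 67 with PMA (log2 fold change -2.63) and OAS1, a sensor of double-stranded RNA, had 1105, 1115 and 1078 normalized counts in the controls and 301, 270 and 259 with PMA (log2 fold change -1.99). In these the highest PMA library lay below the lowest control. IFI44L, at 55.3, 36.7 and 45.1 normalized counts in the controls and 5.8, 2.85 and 5.99 with PMA, had a log2 fold change of -3.02 and was not called without control 1 (log2 fold change -2.88, adjusted p = 3.38e-04).

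The class with the lowest median was the one for sterol and fatty acid synthesis, most of them controlled by the SREBP transcription factors. Of 39, 22 were called lower and none higher, 35 were lower by the second rule and 1 higher, and the median was -1.20. The share of all counts went from 1.40% to 0.474%. HMGCS1, the synthase at the head of the mevalonate pathway, had 13357, 12951 and 12926 normalized counts in the controls and 2977, 3252 and 3099 with PMA (log2 fold change -2.07, SE 0.04, adjusted p = 8.98e-12). MVD had 5171, 5018 and 4877 normalized counts in the controls and 1149, 1061 and 1227 with PMA (log2 fold change -2.13) and MSMO1, a sterol oxidase, had 14588, 14147 and 14792 normalized counts in the controls and 3091, 3206 and 3246 with PMA (log2 fold change -2.19). DHCR7, which makes cholesterol from its last precursor, had 19261, 17882 and 18885 normalized counts in the controls and 5623, 5385 and 5714 with PMA (log2 fold change -1.74). On the fatty acid side SCD changed by -2.64 on the log2 scale, FASN by -1.54 and FADS2, a desaturase, by -1.72. Enzymes from the start to the end of the sterol pathway thus fell together, and ABCG1, a sterol exporter regulated by LXR rather than SREBP, fell with them, from 493, 486 and 462 to 119.6, 142 and 136 normalized counts (log2 fold change -1.85). PPARG, a nuclear receptor of lipid storage, went from 119, 122 and 120.1 to 8.13, 10.5 and 7.18 normalized counts (log2 fold change -3.68). Of the 30 promoter windows of the sterol and fatty acid class, 1 (3.33%, against 1.11% of all 11800 windows) held the sterol element letters TCACNCCAC. This motif was added to the search after the values were seen.

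**Figure D4:**
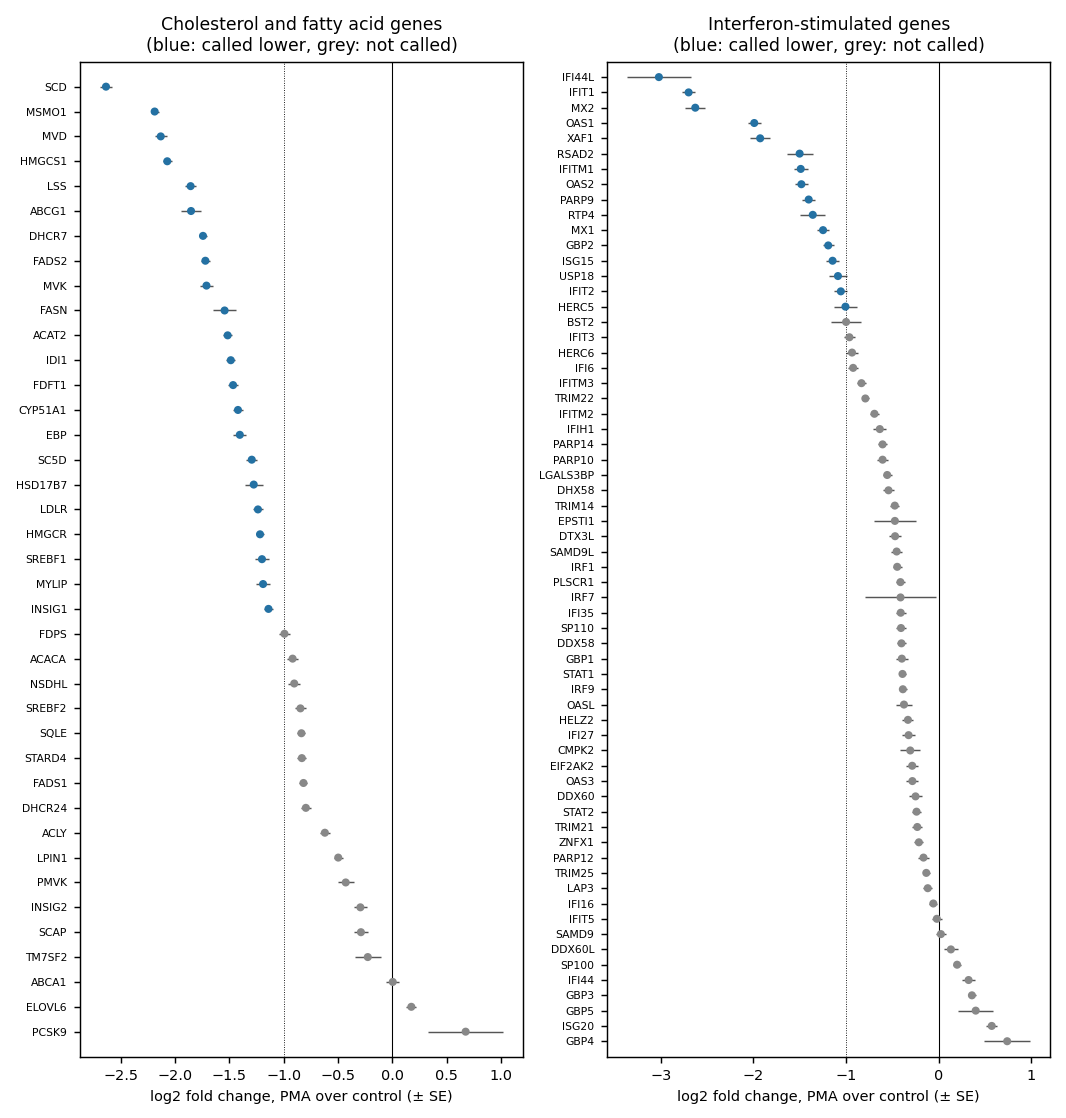
Log2 fold changes, PMA over control, with standard errors, of the 39 sterol and fatty acid genes (left) and the 64 interferon-stimulated genes (right), sorted. Blue points were called lower, grey points were not called, the solid line is 0 and the dotted line marks -1. No gene in either panel was called higher.

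Other metabolic classes moved less. Of 39 glycolysis and hypoxia genes, 3 were called lower and none higher (7.69% in all, against 8.65% of all genes), with a median of -0.15. Without PMA 2 there was 1 called higher. ALDOC went from 5214, 5757 and 5504 to 2015, 2250 and 2302 normalized counts (log2 fold change -1.33) and CA9, a carbonic anhydrase induced by hypoxia, from 1529, 1677 and 1802 to 649, 696 and 680.1 normalized counts (log2 fold change -1.30). In the prostaglandin class 5 of 21 were called higher and 3 lower, and under scaling to summed counts 3 were higher. Both cyclooxygenases rose, PTGS2 with 752, 802 and 884 normalized counts in the controls and 9664, 10111 and 10244 with PMA (log2 fold change 3.62, SE 0.06, adjusted p = 1.62e-12) and PTGS1 from 37.8, 48.3 and 43.3 to 244, 274 and 244 normalized counts (log2 fold change 2.54). PTGES, a synthase that acts after them to make prostaglandin E2, fell from 913, 978 and 884 to 138, 171 and 129 normalized counts (log2 fold change -2.66). The prostacyclin receptor PTGIR rose (log2 fold change 1.78).

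Stress classes held calls in both directions. In the antioxidant class 4 of 31 were called higher and 3 lower. SOD2, the mitochondrial superoxide dismutase and a known NF-kB target, had 6681, 6429 and 6606 normalized counts in the controls and 32433, 33008 and 33020 with PMA (log2 fold change 2.32, SE 0.04, adjusted p = 1.35e-12), and thioredoxin reductase TXNRD1 rose from 18339, 17131 and 17107 to 45248, 46291 and 45439 normalized counts (log2 fold change 1.38). The calls higher in this class numbered 2 under quantile normalization or scaling to summed counts. The metallothionein MT2A went from 13445, 14412 and 13635 to 39309, 40400 and 42564 normalized counts (log2 fold change 1.56). In the unfolded protein and amino acid stress class 3 of 43 were called higher and 1 lower (9.30% in all, against 8.65% of all genes). By the second rule 28 were higher. PPP1R15A, the phosphatase subunit GADD34, had 6049, 6096 and 5950 normalized counts in the controls and 20294, 20164 and 20489 with PMA (log2 fold change 1.75) and NUPR1 went from 514, 499.9 and 426 to 85.9, 72.2 and 87.4 normalized counts (log2 fold change -2.54). The other 2 calls higher, CEBPB and SESN2, were not robust: CEBPB was not called without control 1, control 2, PMA 1 or PMA 2 (log2 fold change 1.10 to 1.28, adjusted p 1.34e-04 to 3.60e-04), and SESN2 was not called without control 1, control 2, PMA 1 or PMA 3 (log2 fold change 0.99 to 1.00, adjusted p 7.43e-09 to 4.57e-08). Among damage-response genes and apoptosis regulators, 5 of 43 were called higher and 6 lower. BCL2A1, an anti-apoptotic NF-kB target, had 109.7, 148 and 130 normalized counts in the controls and 2837, 3285 and 3032 with PMA (log2 fold change 4.56), and BCL2L11, which encodes the pro-apoptotic BIM, had 596, 625 and 695 normalized counts in the controls and 118, 124 and 129 with PMA (log2 fold change -2.36). The kinase PLK2 fell from 13419, 12916 and 12507 to 3240, 3329 and 3260 normalized counts (log2 fold change -1.98). Without control 1, control 2, PMA 1 or PMA 3, the calls higher in the damage-response and apoptosis class numbered 2 or 3.

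Almost no cell cycle gene passed the fold of the call. None of 59 DNA replication and G1/S genes was called, yet 44 were higher by the second rule and 4 lower, with a median of 0.36. Of 71 mitosis and G2/M genes, 16 were higher and 25 lower by the second rule, the median was -0.01, and the single call was KIF20A, a kinesin of cytokinesis, at 1222, 1218 and 1187 normalized counts in the controls and 489.9, 515 and 593 with PMA (log2 fold change -1.19). In the class of D cyclins and CDK inhibitors, CDKN2C was called lower (log2 fold change -1.19).

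Targets of YAP and TEAD, the coactivator and factor that respond to cell spreading, were called higher more often than lower. Of 31, 6 were called higher and 2 lower, 20 were higher by the second rule and the median was 0.45. ANKRD1 went from 1318, 1212 and 1073 to 3483, 3794 and 3629 normalized counts (log2 fold change 1.60), and DLC1 from 3751, 3506 and 3761 to 10574, 10404 and 10640 normalized counts (log2 fold change 1.52). Without control 2 the calls lower in this class numbered 4. Of 34 contractile and SRF target genes, 2 (5.88%, against 4.03% of all genes) were called higher and none lower. They were smoothelin (SMTN), at 3116, 3004 and 3252 normalized counts in the controls and 11022, 10293 and 11350 with PMA (log2 fold change 1.80), and LIMA1 (log2 fold change 1.19). By the second rule 10 were higher and 17 lower, and the median was -0.17. Among 87 genes for small GTPases of the cytoskeleton and their regulators, 9 were called higher and 5 lower, and 5 were higher under quantile normalization or scaling to summed counts. RHOB, an endosomal small GTPase of rapid turnover, had 6220, 6478 and 7733 normalized counts in the controls and 1446, 1337 and 1353 with PMA (log2 fold change -2.30, SE 0.07, adjusted p = 2.81e-10).

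Guidance and receptor families were lower more often than higher. Of 55 semaphorin, plexin, ephrin and EPH receptor genes, 9 were called lower and 5 higher, 35 were lower by the second rule, and the median was -0.41. The plexin PLXNA4 had 2631, 2585 and 2858 normalized counts in the controls and 627, 570.3 and 581 with PMA (log2 fold change -2.18), and SEMA7A, named above, was among the rises (log2 fold change 1.64). Of 73 orphan and adhesion G protein-coupled receptors, 10 were called lower and 4 higher. GPR84, a receptor of medium-chain fatty acids on myeloid cells, had 59, 88.5 and 73.1 normalized counts in the controls and 1233, 1267 and 1218 with PMA (log2 fold change 4.08), while ADGRL3, a latrophilin, went from 223, 189 and 216 to 12.8, 9.51 and 20.4 normalized counts (log2 fold change -3.85). Other receptors with falls among the largest were the chemokine scavenger ACKR3 (log2 fold change -3.92), the formyl peptide receptor FPR1 (log2 fold change -3.83), the dopamine receptor DRD2 (log2 fold change -3.65) and the bradykinin receptor BDKRB2, at 2413, 2180 and 2430 normalized counts in the controls and 186, 196 and 165 with PMA (log2 fold change -3.68).

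Transporters and channels were mixed. Of 235 solute carriers, 12 were called in each direction (5.11%, against 4.03% higher and 4.61% lower of all genes). Without PMA 2 the calls lower numbered 7. SLC2A12, a glucose transporter, went from 482, 446 and 487 to 44.7, 32.8 and 35.6 normalized counts (log2 fold change -3.62) and SLC46A3, a lysosomal transporter, from 162, 163 and 192 to 1170, 1137 and 1177 normalized counts (log2 fold change 2.75). Of 75 potassium, sodium and calcium channels, 5 (6.67%, against 4.61% of all genes) were called lower and 2 (2.67%, against 4.03%) higher. TRPV3, a channel of keratinocytes, had 64.5, 76.9 and 109 normalized counts in the controls and 1210, 1213 and 1103 with PMA (log2 fold change 3.83). The sodium channel SCN9A fell (log2 fold change -2.27). Of 32 ABC transporters, 3 were called lower and 2 higher, 13 were lower and 7 higher by the second rule, and the median was -0.11. ABCA12, a lipid transporter of the epidermis, fell from 22.1, 42 and 37.9 to 2.32, 2.85 and 4.79 normalized counts (log2 fold change -3.01), but it was not called without control 1, control 2, control 3, PMA 1 or PMA 2 (log2 fold change -3.28 to -2.84, adjusted p 1.67e-04 to 6.55e-04), nor under quantile normalization. The other genes called lower were ABCG1, given above, and ABCB9, which is named after its values were seen (log2 fold change -1.13). ABCA13 rose from 115, 106 and 112 to 1705, 1762 and 1588 normalized counts (log2 fold change 3.91) and ABCC9 from 17.5, 42 and 37 to 308, 285 and 261 normalized counts (log2 fold change 3.19). In the glycosylation family 7 of 53 were called lower and 5 higher. The mucin-type transferase GALNT15 (log2 fold change -5.43) and the sialyltransferases ST8SIA1 (log2 fold change -3.15) and ST6GAL2 (log2 fold change -3.09) fell, and ST3GAL1 rose from 2446, 2192 and 2447 to 13831, 13684 and 13710 normalized counts (log2 fold change 2.54). DMBT1, a scavenger receptor protein of mucosal surfaces, went from 643, 604 and 736 to 23.2, 19 and 18 normalized counts (log2 fold change -4.98).

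Transcription factors of mesenchymal programmes were split, with 4 of 46 called higher and 7 lower. By the second rule the balance was the other way, 23 higher and 14 lower. The median was 0.12 and changed sign under scaling to summed counts. SNAI1, a repressor that drives epithelial-mesenchymal transition, fell from 387, 459 and 505 to 134, 117 and 111 normalized counts (log2 fold change -1.89) and RUNX2, of bone, from 738, 691 and 773 to 189, 164 and 183 normalized counts (log2 fold change -2.03). None of 31 HOX genes was called higher and 3 were called lower (9.68% in all, against 8.65% of all genes). Of these, 1 was called without control 1, PMA 1 or PMA 3, or under quantile normalization. Zinc finger genes named ZNF, the largest family of transcription factors, were called in 13 of 423 (3.07%, against 8.65% of all genes), although 152 were lower by the second rule against 66 higher. ZNF385D had the largest fall among them, from 410.3, 402 and 377 to 52.2, 41.8 and 43.1 normalized counts (log2 fold change -3.09). Of 639 long non-coding RNA genes, 30 (4.70%, against 4.03% of all genes) were called higher and 20 (3.13%, against 4.61%) lower. The lower calls numbered 10 without control 1, 12 without control 2 or control 3, and 11 without PMA 2. LINC02392 had 9.22, 8.94 and 14.4 normalized counts in the controls and 522, 514 and 484 with PMA (log2 fold change 5.45). Antisense genes are part of that family, and without stated strand use their reads cannot be told apart from those of the gene opposite.

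The large housekeeping families held almost no calls. No cytoplasmic or mitochondrial ribosomal protein gene and no respiratory chain subunit was called, of 82, 78 and 79, and their medians were -0.08, 0.01 and -0.04. By the second rule, 2 of the 82 cytoplasmic ribosomal protein genes were higher and 19 lower, and their share of all counts went from 8.25% to 6.95%. Proteasome subunits were mostly higher by small amounts. Of 34, 27 were higher by the second rule and 2 lower, with a median of 0.25, and PSMD2 alone was called, from 25320, 24633 and 25057 to 57735, 56252 and 57564 normalized counts (log2 fold change 1.19). On the scale of summed counts, where all genes have a median of -0.12, the medians of 8 classes near 0 changed sign, those of RAB GTPases, translation factors, mitochondrial ribosomal proteins and RGS proteins among them.

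Several called genes were neighbours on the chromosome. In RefSeq order on GRCh38.p14, 20 runs of at least 3 consecutive tested genes were called in the same direction. The longest was on chromosome 2, where IL1A, IL1B, IL36G, IL36B, IL36RN and IL1RN, 6 genes in 325.4 kb, were all called higher. On chromosome 11, MMP8, MMP10, MMP1, MMP3 and MMP13 formed a run of 5 in 231.2 kb, of which MMP8 was not called without control 1, control 2, PMA 1, PMA 2 or PMA 3 (log2 fold change 2.68 to 3.04, adjusted p 1.42e-04 to 1.20e-03) and MMP13 was not called without control 1, PMA 1 or PMA 2 (log2 fold change 2.09 to 2.33, adjusted p 1.24e-04 to 2.41e-04). Also on chromosome 11, the receptor genes MRGPRX3 and MRGPRX4 and the acute-phase genes SAA2 and SAA1 formed a run of 4, where SAA1 and SAA2 are nearly identical and their split of reads is uncertain, and SAA1 was not called without control 1, PMA 2 or PMA 3 (log2 fold change 2.27 to 2.44, adjusted p 1.06e-04 to 1.57e-04). SERPINB7, SERPINB2 and SERPINB8 on chromosome 18 and PLGRKT, CD274 and PDCD1LG2 on chromosome 9 were runs of 3 called higher. Among the runs called lower were BDKRB1 and BDKRB2 with C14orf132 on chromosome 14, and HAP1, JUP and P3H4 on chromosome 17, where HAP1 was not called without control 1 (log2 fold change -4.28, adjusted p = 1.07e-04). In the runs DUS4L, DUS4L-BCAP29 and BCAP29, and POC1B, GALNT4 and POC1B-GALNT4, the genes overlap and share reads, so they do not count as separate changes. Reads may be shared in other runs too. TM4SF19-TCTEX1D2, TM4SF19-AS1 and TM4SF19 start within 7.5 kb, and KRT87P, KRT86 and KRT81 are the near-identical genes named above. Antisense partners were part of the runs with ATP2B1 and ATP2B1-AS1 and with SNAI3 and SNAI3-AS1.

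Promoter letters were then compared between genes called higher, genes called lower and all tested genes. Of 15153 tested genes, 11800 had a RefSeq window. The AP-1 letters TGACTCA were in 3.45% of all windows, in 7.94% of 466 windows of genes called higher and in 4.64% of 517 windows of genes called lower. In the 67 windows of genes that rose by at least 3 on the log2 scale the share was 13.4%. For the kappaB motif the shares were 6.62% of all windows, 12.0% of genes called higher, 6.19% of genes called lower and 14.9% of the genes with the largest rises. The kappaB share was also 16% of the 50 windows of interferon-stimulated genes and 13.3% of the 30 of the cholesterol class, neither of which had a call higher, and 8.33% of the 12 of the IL-1 family. The cyclic AMP element TGACGTCA was in 3.19% of all windows, in 1.93% of each of the called sets and in 1.49% of the largest rises. E2F letters (TTTCCCGC or TTTGGCGC) were in 42.9% of the 49 windows of the DNA replication class, against 3.60% of all, and the CArG box was in 15.6% of the 32 windows of the contractile and SRF class, against 1.06%, and both lists hold known targets of these factors. These shares describe the sequence near the start only and carry no test.

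**Figure D5:**
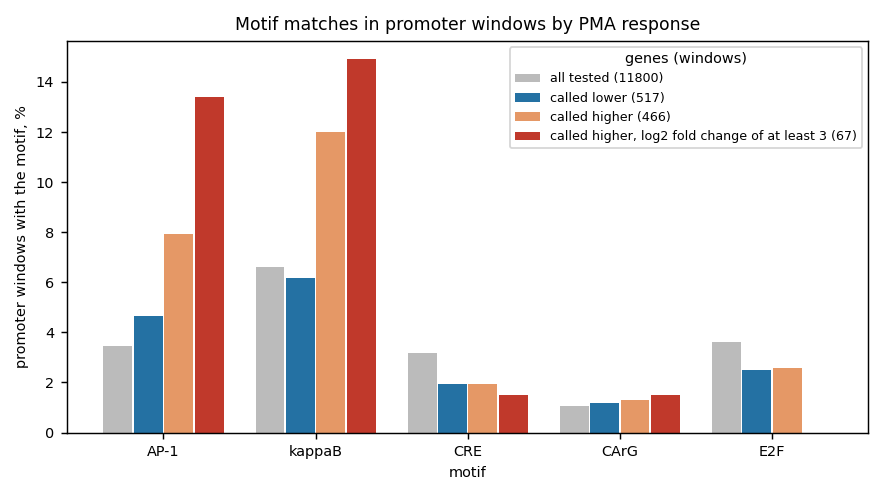
Percent of promoter windows that hold each motif on either strand, among all tested genes with a window (grey, 11800), genes called lower (blue, 517), genes called higher (orange, 466) and genes called higher with a log2 fold change of at least 3 (red, 67). The AP-1 and kappaB bars of the genes that rose most reach 13.4% and 14.9%, and the E2F bar of that set is at 0.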

How the data were processed

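RNA of HT1080 cells was sequenced as polyadenylated RNA libraries, and 3 PMA and 3 control libraries of 1 table were used. The deposited table gives, per gene symbol, signal values that the authors had already normalized, and these behave as estimated counts divided by 1 factor per library and are not divided by gene length. The submitters' processing notes name Partek, Bowtie2, STAR and DESeq2 and the builds hg19 and mm10 with no role, and which of them made this table is not given in the sources used here. The factor was estimated from low values (5 to 60), where 80.6% to 82.5% came out whole within 0.02, so count models were not run. The depth was 33641981 to 42183413 estimated reads per library, and replicates differed by 3.53 to 16.43 times the sampling variance, so the spread between libraries limits the precision. A second treatment's table was normalized apart and is not used here.

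Genes whose mean reached 10 were tested with limma 3.58.1 in R 4.3.3 (moderated variances with a trend) on log2(value + 1), adjusted by Benjamini and Hochberg over all 15153 genes. A group with at most 3 estimated reads in every library was taken as at the floor, and folds against it are bounds computed from 3 reads per library. Class members and lists were chosen with earlier results of these data known, so classes are described by counts and medians with no test. Genes named are the 12 largest rises and 12 largest falls with a mean of at least 100 in the higher group, the 8 largest rises and falls in counts, up to 4 called members per class, all members of 5 signalling classes (DAG receptors, AP-1, EGF, ERK feedback, NF-kB), and members of runs of neighbouring calls. VIM, FN1 and PTPRC are named as identity markers. Promoters and gene order are from RefSeq on GRCh38.p14, matched by symbol. Results for some genes that the rules would name are not reported here. On simulated data the test was checked. Alternatives covered the pseudocount (0.1, 10), the minimum (none, 50), quantile normalization, median centring, voom, the variance trend, both thresholds, a replicate block, leaving out each library and, added after seeing the data, scaling to summed counts. Python 3.11.15, pandas 2.3.3, numpy 2.4.6 and matplotlib 3.10.9 were used.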

Additional observations from a re-analysis of the deposited data

How the results depend on the processing

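No result changed sign with a call under any alternative tried, and no gene switched from called higher to called lower. Without a variance trend 470 genes were called higher and 397 lower, with 1 ERK feedback gene lower, 4 chemokines higher, and 4 protocadherins lower and 1 higher. At an adjusted p of at most 0.05 with the same fold, 1185 genes were lower, with 22 protocadherins and 1 IL-1 family gene among them. At a log2 fold change of at least 2, 192 genes were higher and 183 lower, with 1 ERK feedback gene, 4 NF-kB genes and 5 other interleukins higher, 0 ERK feedback genes, 4 cholesterol genes and 3 interferon-stimulated genes lower, and 4 protocadherins lower against 1 higher. Under quantile normalization 1 ERK feedback gene was lower. Scaling to summed counts gave 504 higher and 873 lower. With 1 library left out, 544 to 621 genes were called higher and 532 to 643 lower, ERK feedback genes called lower numbered 1 to 2 and protocadherins called lower 5 to 10. Of 351 genes named by rule, 72 lost their call without the trend, 24 under quantile normalization, 15 under scaling to summed counts and 8 to 35 with 1 library left out. The causes were not tested.

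The replicate number as a block gave 597 genes higher and 667 lower. Same-numbered libraries did not deviate together (correlations of -0.064, 0.096 and 0.096), so the numbers are not taken to pair them, and the block moved 2 class counts by more than 1.5 times, those of RGS proteins called higher to 0 and of histone genes called higher to 2, each from 1. Low counts limit the precision: the median standard error was 0.26 on the log2 scale for genes with a mean between 10 and 100, and 0.05 between 1000 and 10000.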

Other observations

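Some called genes not yet described lie in runs of neighbouring calls. The itch receptor genes MRGPRX3 and MRGPRX4, of sensory neurons and mast cells, went from 11.1, 23.2 and 30.7 to 522, 506 and 512 normalized counts (log2 fold change 4.61) and from 21.2, 18.8 and 23.5 to 175, 194 and 174 normalized counts (log2 fold change 3.04). SIGLEC15, a lectin of osteoclasts, had 502, 589 and 534 normalized counts in the controls and 3740, 3839 and 4004 with PMA (log2 fold change 2.83, adjusted p = 1.49e-11 from limma), and its neighbour EPG5, of autophagy, had 2075, 2095 and 2145 normalized counts in the controls and 6860, 6828 and 6624 with PMA (log2 fold change 1.69). HSD11B1, which reactivates cortisol inside cells, had 2391, 2356 and 2120 normalized counts in the controls and 7833, 7728 and 7807 with PMA (log2 fold change 1.77). In all of these every PMA library lay above every control.

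Calls were spread over the range of levels. Among genes with a mean of 10 to 100 normalized counts 9.77% were called, 102 higher and 211 lower, and among those above 10000 the share was 11.6%, 56 higher and 17 lower. There were 13 genes called higher whose control libraries all lay within 3 estimated reads, and 7 called lower whose PMA libraries did.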
